A study of Mus musculus with 25 samples.

Results

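Lung interstitial macrophages from mice depleted of neutrophils were compared with the same cells from control mice, across all genes of the deposited lung table. The comparison rests on 6 of the 25 libraries of the series, 3 depleted and 3 control, chosen by their genotype and cell type labels. The mice were C57BL/6. Depleted mice carried the genotype Mrp8_CRE; Rosa26_DTR, in which the promoter of S100a8 (also named Mrp8) drives Cre recombinase, and Cre switches on a diphtheria toxin receptor from the Rosa26 locus. Control mice were Mrp8_WT; Rosa26_DTR and so carried the receptor allele without Cre. All mice, controls included, received diphtheria toxin by intraperitoneal injection at 10 ug per kg for 7 days. The gate for lung macrophages took living cells with CD45, CD68 and F4/80, without CD11c and with high CD11b, a protein that neutrophils carry as well. Ages are not given in the labels, and nothing there says whether the libraries come from separate animals. Hence the p-values speak only of how far these libraries scatter, and that scatter may be technical.

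Interstitial macrophages lie in the walls and connective tissue of the lung, outside the airspaces, where they take up dying cells and debris and present antigen through MHC class II. Neutrophils are short-lived granulocytes that store antimicrobial proteins in granules, carry the chemokine receptor CXCR2 and the receptor for granulocyte colony-stimulating factor, and are cleared by macrophages when they die. Macrophages and neutrophils share many inducible inflammatory genes, so a transcript in a sorted population can come from either cell. In bulk samples such as these, fewer cells of a type and less RNA per cell cannot be told apart.

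The 6 macrophage libraries held 180350 to 385925 estimated reads, so a single read was worth 2.997 to 6.21 units of the deposited normalised signal, and 11 to 25.5% of the 11867 genes per library were at 0 reads. A score that subtracts the mean log2 signal of 17 stromal genes from that of 22 macrophage genes was 5.49 ± 0.179 in these libraries and −4.60 ± 0.455 in the 6 lung fibroblast libraries (SD, n = 6 each). They lay 10.08 apart (exact two-sided permutation over 924 splits, p = 0.00216, as low as it can go). None of the 5 measured gate genes was called in the fit of all genes with limma, and 1 of them had an unadjusted p below 0.05. Ptprc, which encodes CD45, stood at a signal of 459, 337 and 478 in controls and 225, 276 and 297 in depleted mice (log2 fold change −0.67 ± 0.26, SE, limma adjusted p = 0.450). Its libraries did not overlap. Itgam, which encodes CD11b, had a log2 fold change of −0.40, also without overlap, and Adgre1, which encodes F4/80, of 0.25. Together the 5 gate genes held 0.197 to 0.213% of reads in controls and 0.162 to 0.186% in depleted mice (exact two-sided permutation test, p = 0.1). Cd68 and Itgax, which encodes CD11c, were at 0.04 each and changed sign under other settings.

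Most of the genes that passed the test were lower in depleted mice. Of 11867 genes, 59 (0.497%) passed a Benjamini-Hochberg adjusted p of 0.05 in limma and are called here, 51 of them lower (0.43%) and 8 higher (0.0674%). To separate what other cells could supply, each gene was placed in 1 class. The classes were lists of genes typical of neutrophils, B and plasma cells, epithelium or other cells, a list of genes that neutrophils share with other phagocytes, and, outside these lists, genes well expressed or lower expressed in the macrophage libraries. Well expressed means a mean of at least 100 ppm (parts per 1000000) of the mean library total, which is a signal of 104. The lists for other cells and shared genes were chosen with earlier results of these data known. Hence their counts of calls and the p-values of their shares, here and below, are a description. They held 200 measured genes and 37 of the 59 calls, 33 lower and 4 higher. The 1416 well expressed genes outside them held 11 calls (0.777%), 7 lower and 4 higher, and the 10251 lower expressed genes 11 calls, all lower. The minimum is on the mean over all 6 libraries, so a gene can pass it through the group where it is high, and the calls in this class are a description. Of its 11 called genes, Cd209f had a control mean below it (68.7), and Tnfaip2, Fgl2 and Rnf149 had depleted means below it (68.1, 96.2 and 90.7).

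**Figure D1:**
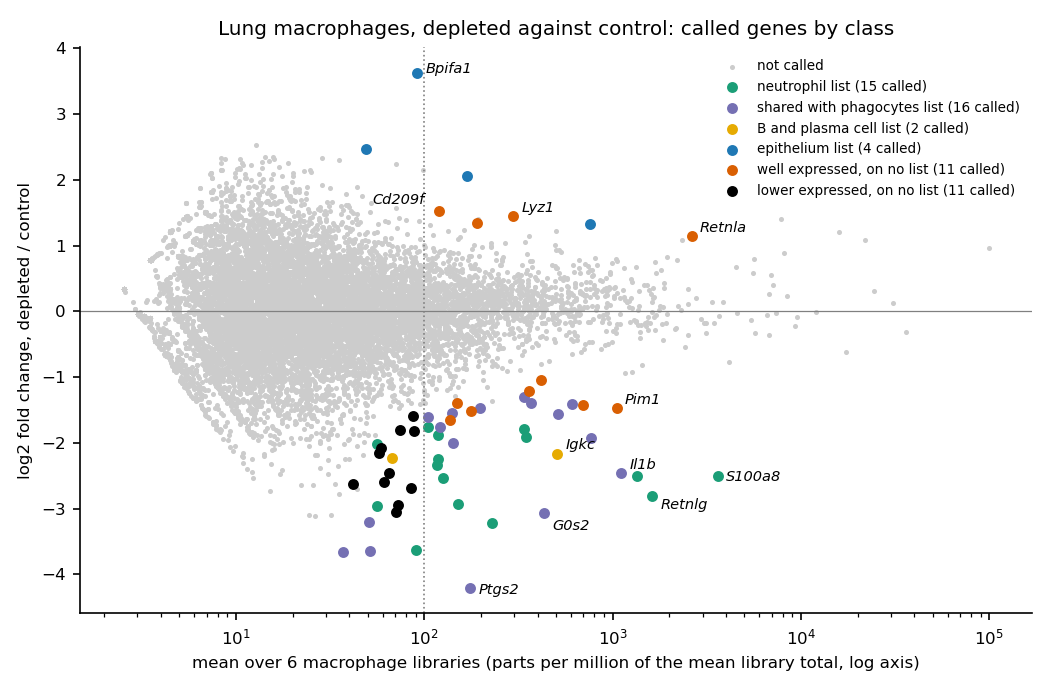
Log2 fold change of depleted over control lung macrophages against the mean over the 6 libraries on a log axis, with called genes coloured by class and the dotted line at 100 ppm. The largest falls belong to the neutrophil and shared lists, and the well expressed genes outside all lists lie between −1.65 and 1.53.

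Over all genes the median log2 fold change was 0.04, and 52.3% of genes were higher in depleted mice. The depleted libraries lay wholly above the controls for 737 genes (6.21%) and wholly below for 714 (6.02%), and 942 genes (7.94%) had an unadjusted p below 0.05. Of the 59 called genes, 57 had groups that did not overlap, all 8 of the higher and 49 of the lower. When each library was left out in turn, 10 genes stayed called in all 6 fits. They were the neutrophil genes Retnlg, S100a9, Il1r2, S100a8, Pglyrp1 and Mxd1 and the shared genes G0s2, Ptgs2, Il1b and Slpi, and all were lower. None of the well expressed genes did. The number called was 11 without control library 2 and 12 without control library 3. Without control library 1 it was 45, and without a depleted library 62 to 70. The calls also rest on limma's variance trend, which sets a gene's expected spread from its level. Without the trend 0 genes were called, with 848 at an unadjusted p below 0.05, and 18 were called when the spread was pooled with the fibroblast libraries, all lower.

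Genes typical of neutrophils held the largest share of called members of any class. Of 30 measured, 15 were called and all 15 fell, against 0.43% of all genes. The list had a median log2 fold change of −1.82 beside 0.04 over all genes, 27 members had a lower mean, and 19 did not overlap between groups, all lower. Retnlg, a resistin-like gene of granulocytes, stood at 2934, 2469 and 3451 in controls and 397, 379 and 474 in depleted mice. Mxd1, which encodes a partner of MAX that opposes MYC and rises as granulocytes mature, stood at 233, 169 and 211 in controls and 46.1, 34.1 and 38.3 in depleted mice (log2 fold change −2.34 ± 0.35, SE, limma adjusted p = 4.19e-05). Pglyrp1, which encodes a granule protein that binds bacterial cell walls, stood at 491, 397 and 839 against 138, 171 and 127 (−1.92 ± 0.28, SE, limma adjusted p = 2.28e-05). In each of these 3 genes every depleted library lay below every control.

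Several genes of granulocyte function fell in the same way. Csf3r, the receptor gene for granulocyte colony-stimulating factor, fell by 2.24 ± 0.38 on the log2 scale (SE, limma adjusted p = 0.000323), from 187, 173 and 237 to 80.0, 25.2 and 33.6. Hdc, which encodes the enzyme that makes histamine, fell by 2.54, from 119.8, 298 and 258 to 52.3, 21.7 and 38.3. Lrg1, a secreted leucine-rich glycoprotein gene, fell by 1.79, from 206, 912 and 567 to 176, 109 and 132. Control library 1 was the lowest control for Hdc and Lrg1, though still above every depleted library. Mmp8, the neutrophil collagenase gene, fell by 1.76 and Trem1, a receptor gene that amplifies inflammation, by 1.89 (limma adjusted p = 0.00643 and 0.00644). These 5 genes were not called without control library 2 (−2.33, −2.29, −1.32, −1.79 and −1.83 in this order) or control library 3 (−2.11, −2.39, −1.66, −1.58 and −1.49). Over the class, 6 of 15 calls were kept without either of those libraries and 13 without control library 1.

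The neutrophil list was not uniform. Fpr1, a receptor for formylated bacterial peptides, stood at 160.5, 223 and 246 in controls and 151, 233 and 138 in depleted mice, and the groups overlapped (log2 fold change −0.29). Mcemp1 had a log2 fold change of −0.44. Ifitm6, an interferon-induced membrane protein gene, stood at −0.31, and at 0.19 without depleted library 1. Ly6g, the surface marker by which mouse neutrophils are usually recognised, rested on 14.2 and 13 estimated reads over the control and depleted groups and stood at 0.34. S100a8 was still measured at 895, 1052 and 1175 in the depleted libraries, against 5155, 3741 and 10656 in controls. In lung fibroblasts it was at 1.94 to 26.7.

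As a share of all estimated reads, the neutrophil list made up 1.27, 1.07 and 2.04% of the control libraries and 0.241, 0.293 and 0.275% of the depleted. The log2 ratio of the group means of log shares was −2.39 (exact two-sided permutation over 20 splits, p = 0.1, as low as 3 against 3 can go). Control library 3 was the highest, and the groups did not overlap. The same list held 0.00647 to 0.0131% of reads in the lung fibroblast libraries of control mice and 0.00958 to 0.0133% in those of depleted mice.

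**Figure D2:**
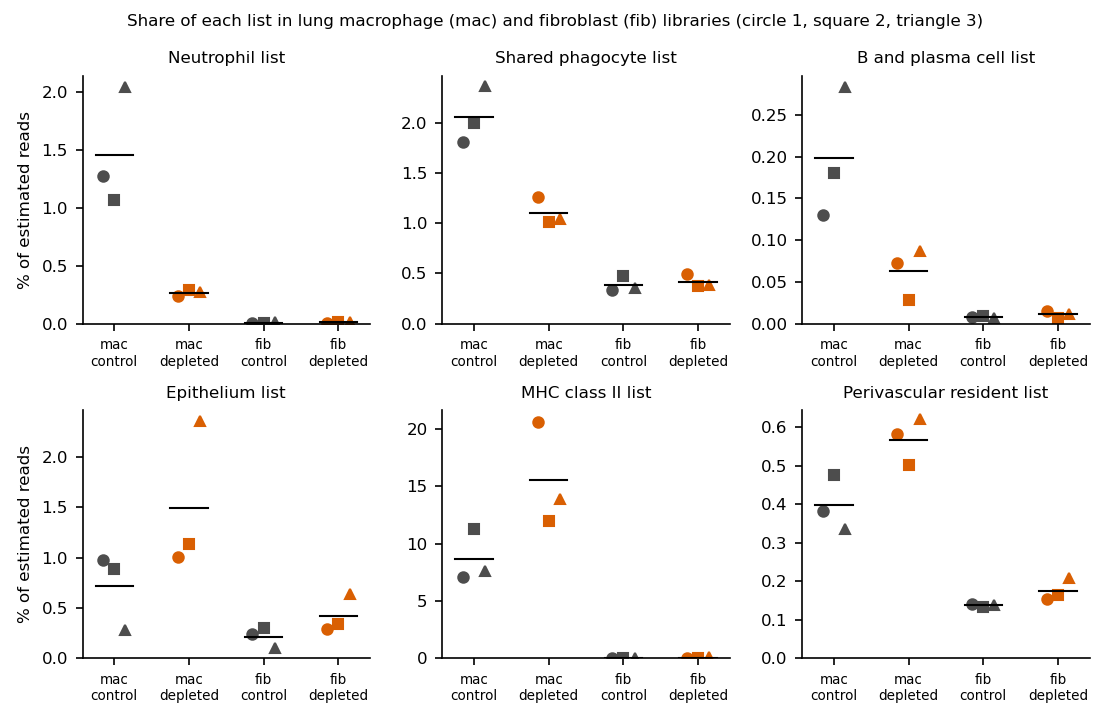
Share of estimated reads (%) held by 6 gene lists in each lung macrophage (mac) and fibroblast (fib) library, with a bar at the group mean. The neutrophil share is 1.07 to 2.04% in control macrophages and 0.241 to 0.293% in depleted ones, while the epithelium share is highest in depleted library 3 of both cell types.

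Some inflammatory genes that neutrophils share with macrophages and monocytes fell as well. Of 45 measured, 16 were called and all 16 fell, against 0.43% of all genes, 38 had a lower mean, and the median log2 fold change was −1.05 beside 0.04 over all genes. The groups of 24 members did not overlap, all lower, against 6.02% of all genes. Ptgs2, the inducible cyclooxygenase gene of prostaglandin synthesis, stood at 396, 268 and 377 in controls and 21.5, 27.9 and 8.83 in depleted mice, or 17.9-fold lower by the group means. Il1b, which encodes interleukin 1 beta, stood at 1966, 1592 and 2319.8 against 477, 269.9 and 339. G0s2, an inhibitor gene of triglyceride breakdown, stood at 711, 676 and 1036 against 114, 83.8 and 85.4. The lowest control was at least 3 times the highest depleted library for all 3 genes.

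Ptgs2 and Il1b carried the largest fall and the highest control signal among the called genes of this list. The 250 bases before their RefSeq start sites (GRCm38.p6, read on the gene's strand) are shown because both are textbook targets of NF-kappa-B and C/EBP factors. Ptgs2 lies at chr1:150099781-150100030 (+) and Il1b at chr2:129371140-129371389 (−). Capitals mark matches, on either strand, to a C/EBP motif (TTNNGNAA) or to TATAAA.
Ptgs2: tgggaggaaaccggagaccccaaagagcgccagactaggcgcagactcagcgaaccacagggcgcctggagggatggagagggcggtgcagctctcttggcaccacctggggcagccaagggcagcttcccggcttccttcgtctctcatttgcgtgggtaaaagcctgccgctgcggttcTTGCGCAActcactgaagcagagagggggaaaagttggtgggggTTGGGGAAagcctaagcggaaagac
Il1b: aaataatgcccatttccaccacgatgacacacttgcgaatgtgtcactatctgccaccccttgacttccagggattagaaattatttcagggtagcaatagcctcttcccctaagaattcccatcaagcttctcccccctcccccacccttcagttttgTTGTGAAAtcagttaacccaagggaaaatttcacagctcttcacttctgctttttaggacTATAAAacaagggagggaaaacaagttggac

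The C/EBP letters were found 69 and 25 bases before the Ptgs2 start and 91 before the Il1b start. They are common, with a match in 36.9% of 32851 such windows of 27025 genes, and TATAAA was in 12.4%. The kappa-B motif, TGACGTCA and TGANTCA had no match in either window, against 7.25, 1.55 and 6.75% of all windows. A match here is a description of the letters and not of binding. These positions, too, depend on where each start is annotated. Bases further upstream or past the starts were not searched, so a missing match does not show that the promoter lacks the motif.

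Among other shared genes that fell, 3 were left with 1 to 3 reads in depleted mice. Acod1, which encodes the enzyme that makes itaconate, had 47 estimated reads over the controls and 1 over the depleted libraries, a ratio of 32.1 after library scaling (95% Clopper-Pearson interval 5.48 to 1293, counting error only). Il1f9, which encodes interleukin 36 gamma, had 70 and 2 reads (ratio 23.9, interval 6.37 to 201). Hcar2, a receptor gene for niacin and ketone bodies, had 63 and 3 reads (ratio 14.3, interval 4.68 to 71.3). Clec4d, a C-type lectin receptor gene, stood at 210.2, 187 and 322 in controls and 52.3, 59.0 and 61.8 in depleted mice (log2 fold change −2.0 ± 0.33, SE, limma adjusted p = 0.000172). Btg1, an antiproliferative gene, stood at 694, 952 and 1131 against 418, 289 and 331 (−1.41 ± 0.25, SE, limma adjusted p = 0.000866). Clec4d was not called without control library 3 (−1.77), nor Btg1, Il1f9 or Hcar2 without control library 2 (−1.37, −3.52 and −3.50) or 3 (−1.25, −3.40 and −2.95). Acod1 lost its call without control library 1 (−3.49), 2 (−4.0) or 3 (−3.51). Of the 16 calls, 5 were kept without control library 2, 5 without control library 3 and 12 without control library 1.

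The shared list made up 1.81, 2.0 and 2.37% of reads in controls and 1.26, 1.01 and 1.04% in depleted mice (log2 ratio −0.90, exact two-sided permutation test, p = 0.1). Members with a higher mean were 7, with log2 fold changes of 0.10 to 0.66. The neutrophil share moved with this list, and its part in these falls was not tested.

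Transcripts of B and plasma cells had lower means in all 20 measured members, with a median log2 fold change of −1.30. Of these, 2 were called, against 0.43% of all genes called lower, and 9 did not overlap between groups, against 6.02%. Igkc, the immunoglobulin kappa constant region, stood at 323, 924 and 1282 in controls and 268, 46.5 and 333 in depleted mice, so that its highest depleted library passed its lowest control. Cd79b, a signalling chain of the B cell receptor, stood at 83.6, 88.4 and 157 against 9.23, 15.5 and 67.7 without overlap. Ebf1, a factor that specifies B cells, stood at 47.5, 61.4 and 50.5 against 9.23, 3.10 and 20.6 (log2 fold change −2.47), and Cd79a at −1.87, and neither was called (limma adjusted p = 0.144 and 0.158). The list's share of reads was 0.130, 0.180 and 0.283% in controls and 0.0729, 0.0288 and 0.0868% in depleted mice (log2 ratio −1.73, exact two-sided permutation test, p = 0.1). Neither gene was called without control library 2 (Igkc −1.99 and Cd79b −2.35) or control library 3 (−1.76 and −1.94), and Cd79b was not without control library 1 (−2.39) or depleted library 1 (−1.66). Without depleted library 2, Igkc stood at −1.28.

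Among epithelial transcripts, higher means prevailed. Of 30 measured, 25 had a higher mean in depleted mice, the median log2 fold change was 0.80 beside 0.04 over all genes, and 4 were called, all higher, against 0.0674% of all genes. Sftpa1, a surfactant protein gene, stood at 531, 692 and 217 in controls and 950.5, 940.2 and 1402 in depleted mice (log2 fold change 1.32). Sftpd, another surfactant gene, rested on 14.0 and 39.0 reads over the groups (2.47), Bpifa1, a secreted airway protein gene, on 6 and 90.8 (3.63), and Cyp2f2, a club cell gene, on 62.9 and 137 (2.06). All 4 lost their call without control library 2 (1.66, 2.80, 4.46 and 2.69), control library 3 (0.83, 1.53, 3.28 and 1.15) or depleted library 3 (1.13, 2.39, 2.34 and 1.46). Sftpd was also not called without depleted library 1 (2.52) or 2 (2.51), nor Bpifa1 and Cyp2f2 without control library 1 (3.14 and 2.32). The list's share of reads was 0.976, 0.885 and 0.284% in controls and 1.005, 1.131 and 2.352% in depleted mice (log2 ratio 1.15, exact two-sided permutation test, p = 0.1). The ratio was 0.58 without control library 3 and 0.77 without depleted library 3. In lung fibroblasts the same list stood at 0.238, 0.303 and 0.105% in controls and 0.293, 0.343 and 0.637% in depleted mice. Library 3 was the lowest control and the highest depleted library in both cell types. Whether libraries of the same number were prepared together is not stated in the labels, and the part of such handling was not tested.

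The 75 measured genes of the remaining cell type lists held no call in limma, with 8 at an unadjusted p below 0.05 and a median log2 fold change of 0.08. They cover T and natural killer cells, mast cells and other granulocytes, platelets and red cells, endothelium, stroma, dendritic cells and alveolar macrophages. The share of T and natural killer genes was 0.0315 to 0.0450% in controls and 0.0252 to 0.0409% in depleted mice, and the endothelial share 0.0391 to 0.0922% and 0.0601 to 0.0634%. The largest of these shares was that of 19 alveolar macrophage genes, 16 of them among the 75. It was 0.621 to 0.896% in controls and 0.615 to 1.07% in depleted mice. The dendritic share was 0.0527 to 0.104% and 0.0879 to 0.153%, also with overlap. Chil3, an alveolar macrophage gene, stood at 4136, 5353 and 8139.6 against 10381, 10026 and 5509.8 (log2 fold change 0.56). Marco, a scavenger receptor gene, stood at −0.93, and Ccl5, a chemokine gene of T and natural killer cells, at −0.88. Stromal Inmt stood at 1.13, and Cd209a, which marks a monocyte-derived dendritic subset, at 0.77.

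Among genes well expressed in the macrophage libraries and on none of those lists, 7 fell. Pim1, a survival kinase gene induced by cytokines, had the lowest p. It lies on chromosome 17 (29490753 to 29496112, GRCm38) and stood at 1867, 1609 and 1359 in controls and 625, 518 and 593 in depleted mice. This is a log2 fold change of −1.47 ± 0.24 (SE, limma adjusted p = 0.000172). S100a11, a calcium-binding gene of the same family as S100a8, stood at 1178, 688 and 1291 against 292, 351 and 527 (−1.42 ± 0.26, SE, limma adjusted p = 0.00135). Control library 2 was the lowest control for S100a11, yet it lay above every depleted library. Tnfaip2, a gene induced by tumour necrosis factor, stood at 181, 214 and 252 against 76.9, 71.4 and 55.9 (−1.65 ± 0.32, SE, limma adjusted p = 0.00271). Fgl2, a fibrinogen-like gene with prothrombinase and immunoregulatory roles, stood at 219, 262 and 341 against 120.0, 71.4 and 97.2 (−1.51 ± 0.30, SE, limma adjusted p = 0.00453). The groups did not overlap in any of these 4 genes.

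The other 3 that fell had higher adjusted p-values. Stk17b, a kinase gene of the death-associated protein kinase family, stood at 514, 457 and 602 in controls and 279.9, 245 and 162 in depleted mice (log2 fold change −1.22, limma adjusted p = 0.0108). Rnf149, a ubiquitin ligase gene, stood at 223, 215 and 223 against 108, 120.4 and 44.2 (−1.40, limma adjusted p = 0.031). Depleted library 3 was the lowest for both. Gsr, the glutathione reductase gene, stood at 549, 467 and 751 against 237, 282 and 327 (−1.04, limma adjusted p = 0.0427). Pim1 was not called without control library 2 (−1.46). S100a11, Tnfaip2 and Fgl2 were not without control library 2 (−1.70, −1.65 and −1.53) or 3 (−1.25, −1.53 and −1.34), nor was Stk17b without these (−1.31 and −1.11) or depleted library 3 (−0.99). Rnf149 lost its call without control library 1 (−1.39), 2 (−1.41) or 3 (−1.39) or depleted library 3 (−0.95), and Gsr in every fit that left out a library (−1.20 to −0.85).

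**Figure D3:**
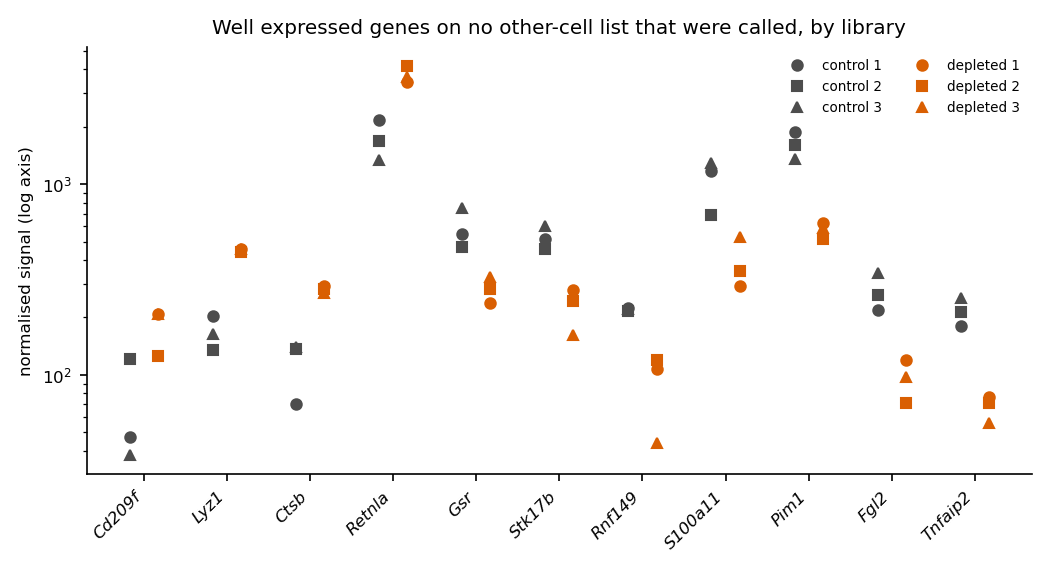
Normalised signal on a log axis of the 11 called genes that were well expressed and on no list of other cells, for each of the 3 control and 3 depleted lung macrophage libraries. Control and depleted points do not overlap for any gene, and the narrowest gap is in Cd209f, between 121 in control library 2 and 126 in depleted library 2.

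In lung fibroblasts, which held almost no neutrophil transcripts, the same 7 genes had log2 fold changes of −0.46 for Pim1, −0.40 for S100a11, −0.34 for Tnfaip2, 1.02 for Fgl2, 1.58 for Stk17b, −0.86 for Rnf149 and −0.51 for Gsr. None was called there (1 of 11867 genes was, 0.00843%), and Stk17b rested there on at most a few reads per library. The list of neutrophil genes fell in the same macrophage libraries, and how much of the 7 falls came with it was not tested.

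The genes that rose among the well expressed were Retnla, Lyz1, Ctsb and Cd209f. The epithelial list held a larger share of reads in the same depleted libraries, and its part in these rises was not tested. Retnla, which encodes the secreted effector RELM-alpha of alternatively activated macrophages, stood at 2159.8, 1687 and 1333 in controls and 3438, 4144 and 3642 in depleted mice. The group means differed 2.17-fold. Ctsb, the gene of the lysosomal protease cathepsin B, stood at 70.1, 136 and 139.6 against 292, 282 and 268 (log2 fold change 1.34 ± 0.30, SE, limma adjusted p = 0.0165). Cd209f, a C-type lectin gene, stood at 47.5, 121 and 38.0 against 208, 126 and 209 (1.53 ± 0.37, SE, limma adjusted p = 0.036). All 4 lacked a call without control library 2 (1.14, 1.30, 1.49 and 2.03 in the order first named) or 3 (0.97, 1.44, 1.51 and 1.21). Ctsb and Cd209f were also not called without control library 1 (1.02 and 1.36) or depleted library 1 (1.31 and 1.41). Retnla and Ctsb were not without depleted library 2 (1.06 and 1.34), nor Retnla and Cd209f without depleted library 3 (1.16 and 1.41).

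Retnla and Retnlg are neighbouring paralogs whose RefSeq start sites lie 29999 bases apart on the plus strand of chromosome 16, and they moved in opposite directions. Their 250 upstream bases from RefSeq (GRCm38.p6) are therefore set side by side, Retnla at chr16:48842359-48842608 and Retnlg at chr16:48872358-48872607. The GENCODE annotation used for gene positions begins Retnla earlier, at 48842551. Capitals mark matches, on either strand, to the C/EBP motif, to a STAT6-type motif (TTC and GAA with 4 free bases between) or to TATAAA, and no match overlaps another.
Retnla: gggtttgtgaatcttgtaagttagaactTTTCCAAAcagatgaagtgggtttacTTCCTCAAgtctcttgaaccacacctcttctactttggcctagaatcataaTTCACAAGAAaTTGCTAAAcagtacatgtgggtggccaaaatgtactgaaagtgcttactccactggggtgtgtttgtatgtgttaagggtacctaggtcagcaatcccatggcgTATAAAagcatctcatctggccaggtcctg
Retnlg: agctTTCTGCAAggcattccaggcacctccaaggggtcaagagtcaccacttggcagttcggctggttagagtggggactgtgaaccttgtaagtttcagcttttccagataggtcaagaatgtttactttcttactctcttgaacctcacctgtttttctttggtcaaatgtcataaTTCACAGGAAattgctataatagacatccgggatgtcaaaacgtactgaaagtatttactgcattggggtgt

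Both windows hold a STAT6-type match, TTCACAAGAA from 145 to 136 bases before the Retnla start and TTCACAGGAA from 72 to 63 before the Retnlg start, against 5.85% of all windows with such a match. Retnla also holds 3 C/EBP matches, beginning 222, 196 and 134 bases before its start, and TATAAA at 30 to 25. Retnlg holds a C/EBP match 246 bases before its start and no TATAAA within its window. The letters after the STAT6-type match are alike in both windows, but the Retnlg window ends at its annotated start while that of Retnla runs on. A stretch of Retnlg matching that with TATAAA in Retnla would lie past this start, which was not searched. The positions thus depend on where each start is annotated.

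Lyz1 and Lyz2 encode 2 lysozymes of mouse, and reads can be split between these near-identical neighbours with error. Lyz1 stood at 203, 135 and 164 in controls and 459, 438 and 458 in depleted mice (log2 fold change 1.45 ± 0.27, SE, limma adjusted p = 0.00113). Lyz2 stood at 10917, 11815 and 22783 against 29530.3, 30122 and 31779 without overlap and was not called (1.09 ± 0.39, SE, limma adjusted p = 0.356). Lyz1 was 1.83, 1.13 and 0.714% of their sum in controls and 1.53, 1.43 and 1.42% in depleted mice, so control library 1 lay above every depleted library in this ratio. Their sum was 11120 to 22947 in controls and 29989 to 32238 in depleted mice.

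Just short of the threshold, well expressed genes with the lowest p pointed in both directions. On the higher side Ms4a6d, a membrane protein gene of monocytes and macrophages, stood at 246, 361 and 431 in controls and 587, 760.1 and 705 in depleted mice (log2 fold change 1.01, limma adjusted p = 0.0556). Mmp12, the macrophage elastase gene, stood at 206, 329 and 169 against 618, 382 and 433 (1.05), and F13a1, a coagulation factor gene of resident macrophages, at 179, 181 and 104 against 237, 394 and 321 (1.05). Tmem106a, Aprt and Dpep2 had log2 fold changes of 1.24, 1.22 and 1.11. On the lower side Cd44, the hyaluronan receptor gene, stood at 1959.8, 1299 and 1505 against 791, 766 and 904 (−0.93, limma adjusted p = 0.0705). Ncf1, a subunit gene of the phagocyte NADPH oxidase, stood at 201, 243 and 151 against 83.1, 71.4 and 109 (−1.16, limma adjusted p = 0.108). Grina, Pde4b, Lbr and Ifitm1 stood at −1.39, −1.36, −1.29 and −1.16. Each of the 12 had groups that did not overlap. In the whole well expressed class the groups did not overlap for 150 genes with higher (10.6%) and 121 with lower depleted values (8.55%), and the median log2 fold change was 0.07.

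Among genes of lower expression on no list, 11 fell and none rose, with log2 fold changes of −3.05 to −1.59. A place on no list does not show that macrophages supplied a gene, and the part of other cells in these falls was not tested. Slc2a3, the glucose transporter gene GLUT3, stood at 126, 113 and 157 in controls and 15.4, 15.6 and 13.7 in depleted mice (−3.05 ± 0.47, SE, limma adjusted p = 5.27e-05). Ripor2, which encodes a regulator of cell polarity, stood at 136, 116 and 146 against 22.0, 21.8 and 8.83 (−2.94 ± 0.47, SE, limma adjusted p = 0.000125). Lmnb1, the lamin B1 gene of the nuclear envelope, stood at 96.5, 94.4 and 139 against 15.4, 15.5 and 20.6 (−2.60 ± 0.48, SE, limma adjusted p = 0.00112). These 3 genes had 90.4, 91.8 and 74.8 estimated reads over the controls and 5.85, 7.09 and 7 over the depleted libraries. The others included Sfxn5, a mitochondrial carrier gene (−2.46), Dusp5, a phosphatase gene that restrains ERK (−2.63), and Crispld2, a secreted protein gene (−2.15). Cd24a, a surface glycoprotein gene, stood at −1.59, Foxn2 at −1.80 and Gcnt2 at −2.08. The pseudogene Rpl9-ps6 (−2.69), whose reads can belong to its parent gene, had overlapping groups, and 1 predicted gene completes the 11. None of the 11 was called without control library 2 or without control library 3. There Slc2a3 stood at −3.15 and −2.91, Ripor2 at −3.04 and −2.87, and Lmnb1 at −2.70 and −2.42. In these fits Sfxn5 stood at −2.15 and −2.62, Dusp5 at −2.94 and −2.45, Crispld2 at −2.01 and −2.13, Cd24a at −1.49 and −1.89, Foxn2 at −2.05 and −1.84, Gcnt2 at −2.51 and −1.66 and Rpl9-ps6 at −2.33 and −3.56. Without control library 1, 5 of the 11 were kept, and Dusp5 (−2.48), Crispld2 (−2.32), Foxn2 (−1.53), Gcnt2 (−2.07), Cd24a (−1.38) and Rpl9-ps6 (−2.18) were not. Crispld2 also lost its call without depleted library 1 (−1.62), Cd24a and Rpl9-ps6 without depleted library 2 (−1.28 and −1.67), and Foxn2 and Gcnt2 without depleted library 3 (−1.49 and −1.85).

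Lists of macrophage programmes describe how the rest of the transcriptome lay. The lists overlap, and their counts stand beside a median of 0.04 and 52.3% higher over all genes. Of all genes, 0.497% were called and 7.94% had an unadjusted p below 0.05. These lists too were chosen with earlier results of these data known. Their counts and the p-values of their shares are therefore a description, without correction for the number of lists. Of 21 perivascular resident macrophage genes, 19 had a higher mean, the median log2 fold change was 0.63, and 1, Cd209f, was called. The chemokine gene Ccl8 stood at 129, 214 and 186 in controls and 231, 326 and 598 in depleted mice (1.04), and the carbonyl reductase gene Cbr2 at 0.93. This list made up 0.383, 0.476 and 0.337% of reads in controls and 0.581, 0.502 and 0.620% in depleted mice (exact two-sided permutation test, p = 0.1). With a library left out, 18 to 21 of the 21 were higher.

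Antigen presentation genes of MHC class II had a higher mean in 14 of 15 members, with a median of 0.74, and none was called (7 had an unadjusted p below 0.05). H2-DMb1 and H2-DMa, which encode the chaperone that loads peptides, stood at 0.90 and 0.74. H2-DMa was at 721, 760.0 and 828 in controls and 1459, 1279 and 1134 in depleted mice, without overlap. Chains of the presenting molecules stood at 1.21 for H2-Ab1 and 0.89 for H2-Aa. The share of the list was 7.05, 11.2 and 7.63% in controls and 20.6, 12 and 13.9% in depleted mice (exact two-sided permutation test, p = 0.1). Most of it was Cd74, the invariant chain, chosen here after its values were seen. Cd74 alone held 4.84 to 15.1% of the signal of a library, and its signal in depleted library 1 was 198261.

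Complement genes had a median of 0.53 with 12 of 17 higher and none called (7 with an unadjusted p below 0.05). C1qa, which encodes a chain of the initiating complex, stood at 828, 1164 and 799 in controls and 1375, 1213 and 1817 in depleted mice (log2 fold change 0.66). C1qb and C1qc overlapped, with 0.78 and 0.82. Alternative activation genes had a median of 0.54 and 13 of 18 higher, with 1 called, Retnla. The lectin genes Clec10a and Mgl2 stood at 0.99 and 0.78. Lysosomal genes had a median of 0.26 and 22 of 34 higher, with 1 called, Ctsb. Cathepsin H (Ctsh) stood at 432, 661 and 731 against 1381, 915 and 905 (0.82), cathepsin C (Ctsc) at 0.75 and the sterol carrier gene Npc2 at 1.0. The macrophage identity list had a median of 0.31 and 15 of 22 higher, with none called and 8 at an unadjusted p below 0.05. Its share was 2.80, 3.02 and 4.19% in controls and 4.55, 4.8 and 5.01% in depleted mice (exact two-sided permutation test, p = 0.1).

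**Figure D4:**
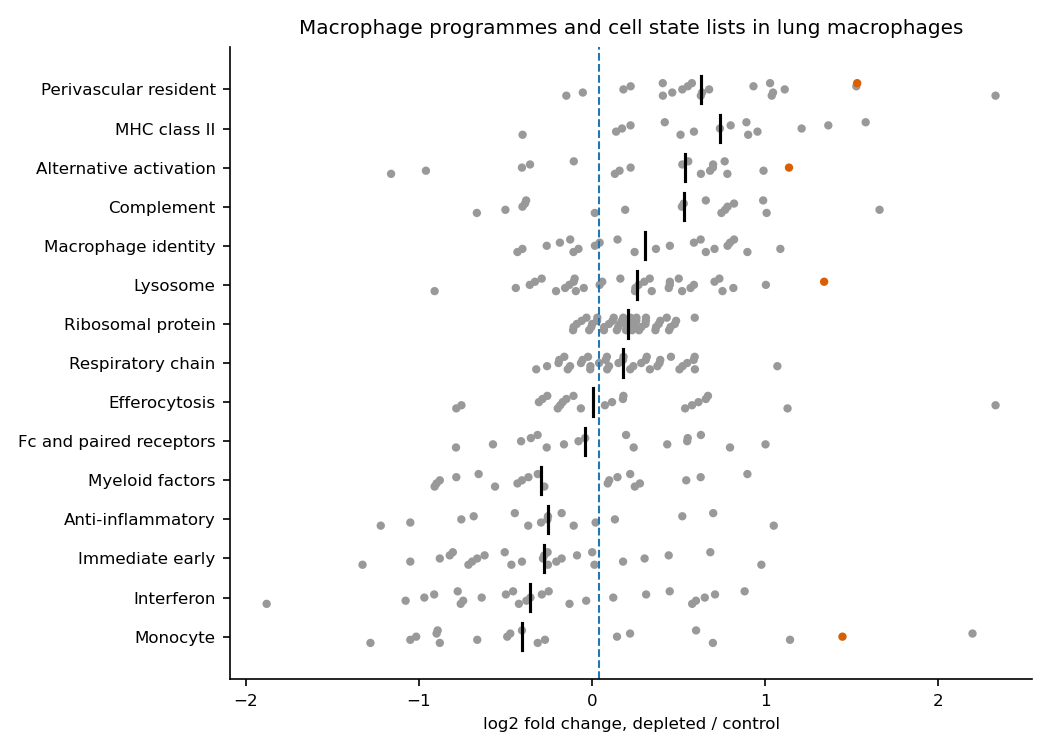
Log2 fold change of each measured member of 15 lists in depleted over control lung macrophages, with called genes in orange, the list median as a black bar and the median of all genes, 0.04, as a dashed line. Medians run from 0.74 for MHC class II to −0.40 for monocyte genes, and 4 points, 1 each in 4 lists, were called.

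Lower means prevailed in a few lists. Of 26 immediate early genes, which cell stress and dissociation also induce, 19 were lower (median −0.28), none was called in limma and 6 had an unadjusted p below 0.05. Nr4a1, an orphan nuclear receptor gene induced by stimulation, stood at 294, 198 and 377 in controls and 101, 139.6 and 174 in depleted mice (log2 fold change −1.05), and Fosl2, an AP-1 subunit gene, at −0.82. The list's share was 0.956 to 0.998% in controls and 0.652 to 0.896% in depleted mice. Of 19 monocyte genes, 12 were lower and 7 higher (median −0.40, log2 fold changes of −1.28 to 2.20), and 1, Lyz1, was called, higher. The share of the monocyte list overlapped, with 0.374 to 0.781% in controls and 0.445 to 0.746% in depleted mice (exact two-sided permutation test, p = 0.9). Cebpb, a factor gene of myeloid cells, stood at 345, 481 and 489.9 against 243, 239 and 215 (−0.90), and Ace, typical of patrolling monocytes, at −1.28. Of 25 interferon-stimulated genes, 17 were lower (median −0.36), with none called and 5 at an unadjusted p below 0.05. Rsad2 stood at −1.88 and Bst2 at 0.88. Other lists were more evenly split by count. Of 32 cytokine and chemokine genes, 14 were lower and 18 higher (median 0.27). In this list 3 were called, all lower (Il1b, Cxcl2 and Osm, all on the shared list), against 0.43% of all genes called lower. Its share of reads was 1.24 to 1.44% in controls and 0.984 to 1.05% in depleted mice, without overlap (exact two-sided permutation test, p = 0.1). Efferocytosis genes, which serve the uptake of dying cells, were 11 higher and 11 lower (median 0.01), with none called and 3 at an unadjusted p below 0.05. Gas6, a bridging ligand gene, rested on 9 and 22 reads over the groups (2.33).

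Lists that can reflect RNA quality overlapped between groups. Mitochondrially encoded genes made up 6.55, 4.43 and 3.25% of reads in controls and 3.10, 4.42 and 4.94% in depleted mice, and ribosomal protein genes 2.98, 2.20 and 2.73% against 2.30, 3.29 and 2.97%.

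To find which effects differed from those in lung fibroblasts of depleted and control mice, the difference between both effects was tested in a model of the 12 lung libraries. Of 11867 genes, 2 were called (0.0169%). G0s2 stood at 711, 676 and 1036 in control and 114, 83.8 and 85.4 in depleted macrophages, but at 385, 402 and 258 in control and 371, 286 and 575 in depleted fibroblasts. The log2 fold change was lower in macrophages by 3.27 ± 0.41 (SE, limma adjusted p = 9.75e-05, interaction −3.27), and it was called in each of 12 fits that left out a library (−3.5 to −3.0). Ptgs2 had an interaction of −4.90 ± 0.85 (SE, limma adjusted p = 0.0175). Its fibroblast signal was 2.73 to 5.35 in controls and 3.40 to 12.1 in depleted mice, at most a few reads per library. A signal this near the floor could hardly fall, so the test cannot tell whether fibroblasts respond differently in Ptgs2. Ptgs2 was not called without macrophage control library 1 (−4.79), 2 (−5.07) or 3 (−4.83), macrophage depleted library 3 (−4.44) or fibroblast depleted library 3 (−4.48).

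**Figure D5:**
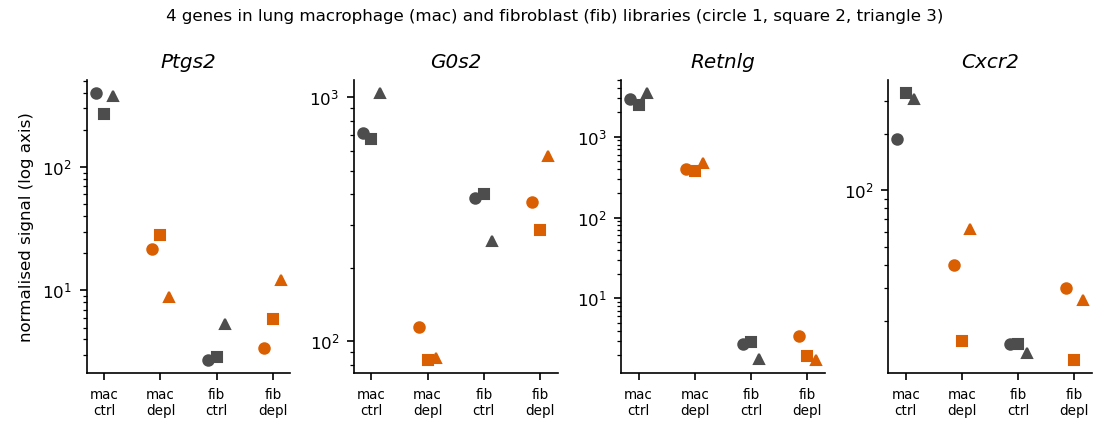
Normalised signal on log axes of Ptgs2, G0s2, Retnlg and Cxcr2 in the control (ctrl) and depleted (depl) libraries of lung macrophages (mac) and fibroblasts (fib), 3 points a group. G0s2 is the one of the 4 with signals above 200 in all fibroblast libraries, and there the depleted points, 286 to 575, overlap the controls, 258 to 402.

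Next in order were Retnlg at −2.75, Cxcr2 at −3.46 and Stk17b at −2.80, none called (limma adjusted p = 0.098, 0.098 and 0.108). Stk17b was at 2.89 to 8.19 in control and 13.6 to 22.4 in depleted fibroblasts, where 1 read was worth 3.45 to 6.81. Its log2 fold changes had opposite signs in the 2 cell types, but the fibroblast value rests on at most a few reads per library. On the positive side the lowest p belonged to Zfp429 (3.41), Aprt (2.02), Sirt4 (3.85), Pgpep1 (3.51) and Srxn1 (3.66), with limma adjusted p of 0.522 to 0.586. Aprt, a purine salvage gene, stood at 65.6, 70.4 and 122 in control and 206, 208 and 168 in depleted macrophages, against 68.2, 93.1 and 55.3 and 30.6, 52.5 and 39.7 in fibroblasts. The other 4 of these stood at a mean signal of 2.24 to 9.74 in control macrophages, a few reads each.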

How the data were processed

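Per the labels' protocols, bulk RNA was amplified with a single-cell kit for single-end sequencing. The submitters' processing notes name CASAVA 1.8, cutadapt 1.7.1, RSEM 1.7.1, limma 3.46 and build mm10, without role or order. How genes were filtered and values normalised is not given in the sources used here. For the lung, the authors deposited a table of normalised signal for 11867 genes, each value being, as found from the values, a constant per library times the sum of estimated reads and 0.5. Reads recovered from it came out whole within 0.01 for 70.0 to 82.2% of genes per macrophage library. They are estimates, so count models were not used. The skin table was not used here.

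Genes were matched to symbols with GENCODE M21 (11829 matched, 38 not). Tests used limma 3.58.1 in R 4.3.3 (lmFit, eBayes with variance trend, two-sided) on log2 of signal plus a pseudocount of 1.04, or 1 ppm (parts per 1000000) of the mean total, over the 6 macrophage libraries and all genes, so fold changes understate those of low genes. Calls required a Benjamini-Hochberg adjusted p under 0.05. Effects in macrophages and fibroblasts were compared by an interaction in a 4-group limma model. Shares of lists used exact permutation of the 6 libraries, whose smallest p is 0.1. Intervals cover counting error only.

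The comparison and all 33 gene lists were chosen with earlier results of these data known. Genes named were up to 12 called per class and direction by lowest p, up to 4 per described list, gate genes, S100a8, S100a9, Ly6g and paralog pairs, 6 uncalled well expressed genes per direction and 5 per direction of the interaction. Predicted genes were passed over, and genes outside this rule were chosen after their values were seen. The main fit was run on simulated reads whose spread followed their level by the same rule for every gene. That simulation cannot test how far the calls rest on the variance trend. Alternatives covered pseudocount, filter, scaling, variance model, library weights, voom, a 4-group model, replicate number as a block, and each library left out; leaving out libraries in the interaction was added after seeing the data.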

Additional observations from a re-analysis of the deposited data

Results flagged for a closer look

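By a test of the difference itself, the effect of depletion was called as different between lung macrophages and lung fibroblasts in G0s2 and Ptgs2. The Ptgs2 signal in fibroblasts lay near the floor and could hardly fall, so its test cannot tell whether fibroblasts respond differently. The log2 fold change of G0s2 was −3.07 in macrophages and 0.20 in fibroblasts, a difference of −3.27 (limma adjusted p = 9.75e-05). In Ptgs2 it was −4.20 in macrophages and 0.69 in fibroblasts, a difference of −4.90 (limma adjusted p = 0.0175). Ptgs2 was not called in 5 of 12 fits that left out a library, without macrophage control 1, 2 or 3 (−4.79, −5.07 and −4.83), macrophage depleted 3 (−4.44) or fibroblast depleted 3 (−4.48). Both genes are on the list shared with neutrophils. The neutrophil list held a mean of 1.46% of reads in control and 0.27% in depleted macrophages, and at most 0.0133% in a fibroblast library, and its part in these differences was not tested. All 3 depleted macrophage libraries lay below all 3 controls in both genes. The fibroblast signal of Ptgs2 rests on a few reads, and without a variance trend 0 genes differed between the cell types by this test in limma, with 708 at an unadjusted p below 0.05.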

How the results depend on the processing

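Depth limits these results, with 180350 to 385925 estimated reads per macrophage library. The number of genes called (59) was 27 with quantile normalisation, 18 with a 4-group model and 0 without a variance trend, where 848 had an unadjusted p below 0.05. Genes called higher (8) were 3 with a pseudocount of 5 ppm, 4 among genes with a mean of at least 20, 1 with quantile normalisation, 5 with library weights, and 0 without a variance trend or with 4 groups. Genes called lower (51) were 26 with quantile normalisation, 18 with 4 groups and 0 without a trend. Well expressed genes called (11) were 4 with quantile normalisation, 17 with median ratio scaling, 24 with the library total without other cells' genes, 2 with 4 groups, 0 without a trend, 21 at a minimum of 50 and 6 at 200 ppm. Scaling to that total moved the median of all genes from 0.04 to −0.08. With 1 library left out, 11 to 70 genes were called, 0 to 11 higher, 11 to 59 lower and 0 to 16 well expressed, and the interaction called 1 to 6. The interaction called 2 genes and 0 without a trend. Cd68 changed sign with the total without other cells' genes (−0.082), and ran from −0.088 to 0.13 with a library left out. Itgax changed sign with that total (−0.089), library weights (−0.015) and voom (−0.035), and ran from −0.25 to 0.23 with a library left out. Ifitm6 ran from −0.75 to 0.19. Voom called 58 genes, 38 of them among the 59. Deviations from the group means had correlations of −0.28, −0.23 and 0.01 across 1485 genes between same-numbered control and depleted libraries. Between libraries of different numbers they ran from −0.08 to 0.30. Deviations from a mean of 3 libraries are bound to each other, so these values cannot show whether the numbers pair samples. The numbers were not taken to do so. With a replicate block 67 genes were called, 12 higher and 55 lower, with 57 of the 59 among them and Retnla and Gsr not called (limma adjusted p = 0.0963 and 0.0864), and the interaction called 2. In all settings listed the causes were not tested.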
